A study of Mus musculus with 17 samples.

Results

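The ligands, receptors and latency proteins of transforming growth factor beta (TGF-beta) signalling were followed in mouse heart samples under pressure load. The set held 10 genes of the 41126 in each deposited table, chosen by name: the ligands Tgfb1, Tgfb2 and Tgfb3, the receptors Tgfbr1, Tgfbr2 and Tgfbr3, the latent TGF-beta binding proteins Ltbp1 and Ltbp2, and the activin subunits Inhba and Inhbb. All 10 were counted in every library and passed the filter on low counts. RNA-seq covered 17 heart samples of C57BL/6 mice in 5 groups. These were TAC 6 week SR9009 (n = 3), TAC 6 week vehicle (n = 3), TAC 1 week SR9009 (n = 4), TAC 1 week vehicle (n = 4) and Control (n = 3). TAC is transverse aortic constriction, a surgical narrowing of the aortic arch, and SR9009 is a synthetic agonist of REV-ERB alpha and beta, nuclear receptors that repress transcription in the circadian clock. Dosing was daily, mice ate normal chow under a 12 h light and dark cycle, and hearts were taken near zeitgeber hour 10. The labels give neither sex nor age, do not say whether Control mice had a sham operation or vehicle, and do not state that replicates were separate animals, so a p-value here reflects sample-to-sample spread alone, part of which may be technical. With 1 Control group for both times, TAC, age, length of dosing and batch cannot be told apart in a comparison with Control or between times.

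TGF-beta ligands are made as dimers bound to their own propeptide, which keeps them latent, and LTBPs tether this latent complex to the matrix until integrins, thrombospondin or proteases free the ligand. Free ligand assembles the type II receptor Tgfbr2 with the type I receptor Tgfbr1, which phosphorylates SMAD2 and SMAD3, while Tgfbr3 (betaglycan) presents ligand at the cell surface and, when shed, can hold it back. In the heart the pathway is best known for turning fibroblasts into matrix-producing myofibroblasts. Activin A and activin B, dimers of the Inhba and Inhbb products, signal through their own receptors to the same SMADs. Ltbp2 is unlike the other LTBPs in that it does not bind the latent TGF-beta complex and associates with fibrillin microfibrils.

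The promoters of 4 genes are shown, because Ltbp2 and Ltbp1 moved in opposite directions under load, while Tgfb1 and Tgfb2 are ligands of which Tgfb1 passed the threshold in no comparison and Tgfb2 passed it at 6 weeks of vehicle TAC. RefSeq (GRCm38.p6) held a promoter entry for 8 of the 10 genes. The windows lie upstream of the transcription start, cut where an exon of a protein-coding transcript begins, and run 5′ to 3′ on the strand of the gene. They lie at chr12:84876533-84876741 on the minus strand for Ltbp2 (209 bases), chr17:75005279-75005528 on the plus strand for Ltbp1 (250 bases), chr7:25686752-25687001 on the plus strand for Tgfb1 (250 bases) and chr1:186705990-186706239 on the minus strand for Tgfb2 (250 bases). Capitals mark a match on either strand to 1 of 6 motifs, namely the AP-1 site TGANTCA, the REV-ERB and ROR half-site TAGGTCA, the E-box CACGTG, the TEAD site CATTCC, the GC box GGGCGG and the SMAD palindrome GTCTAGAC.
Ltbp2: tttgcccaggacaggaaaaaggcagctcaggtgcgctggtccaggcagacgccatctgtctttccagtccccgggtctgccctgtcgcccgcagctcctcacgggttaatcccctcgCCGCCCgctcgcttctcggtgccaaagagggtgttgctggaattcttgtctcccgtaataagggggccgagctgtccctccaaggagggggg
Ltbp1: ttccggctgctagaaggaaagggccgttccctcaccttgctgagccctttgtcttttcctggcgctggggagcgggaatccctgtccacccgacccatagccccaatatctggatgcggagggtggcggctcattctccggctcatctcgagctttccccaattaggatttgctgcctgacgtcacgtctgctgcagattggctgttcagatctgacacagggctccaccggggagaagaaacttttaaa
Tgfb1: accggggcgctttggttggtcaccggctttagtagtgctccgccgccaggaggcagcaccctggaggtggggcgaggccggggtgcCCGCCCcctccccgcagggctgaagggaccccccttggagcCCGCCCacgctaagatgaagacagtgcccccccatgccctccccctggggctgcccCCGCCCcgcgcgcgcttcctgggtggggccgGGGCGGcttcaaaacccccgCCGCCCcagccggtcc
Tgfb2: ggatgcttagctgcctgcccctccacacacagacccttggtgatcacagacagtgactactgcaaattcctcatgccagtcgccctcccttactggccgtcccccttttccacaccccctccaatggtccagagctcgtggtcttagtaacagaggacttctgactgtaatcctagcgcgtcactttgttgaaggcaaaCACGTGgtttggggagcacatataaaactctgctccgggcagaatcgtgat
The Tgfb1 window held 5 GC boxes, which 32.7% of 32851 promoter windows of 250 bases held at least once, and the Tgfb2 window held 1 E-box, found in 6.02% of them. The Ltbp2 window held 1 GC box, found in 26.5% of windows of 209 bases, and none of the 6 motifs was found in the Ltbp1 window shown. RefSeq held another Ltbp1 promoter entry, at chr17:75178531-75178780, which is not shown and also had 0 matches. No match to the REV-ERB and ROR half-site (2.23% of windows of 250 bases) was in any of the 4 windows. A match describes the letters only.

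Depth ran from 8.68 to 15.8 M (mega) fragments per library, with 9.91 to 13.6 M in TAC 6 week SR9009, 13.3 to 15.8 in TAC 6 week vehicle, 10.8 to 13.4 in TAC 1 week SR9009, 8.68 to 12.6 in TAC 1 week vehicle and 9.68 to 10.1 in Control. Every TAC 6 week vehicle library was thus deeper than every Control library. A few libraries stood apart within their group. TAC 6 week vehicle 1 had 42.8 CPM (fragments per M of the library total after TMM adjustment) of the clock gene Arntl, against 3.57 and 2.72 CPM in the other libraries of its group, and 368 CPM of the matrix gene Postn, against 1070 and 847 CPM. TAC 1 week SR9009 2 had 2016 CPM of Postn, against 688, 349 and 317 CPM in the rest of its group. Control 2 had 16.3 CPM of Arntl, against 8.53 and 8.59 CPM in the other Control libraries. For Arntl, TAC 6 week vehicle 2 and 3 lay below every other library, Control included. TAC 6 week vehicle 1 lay above Control, near the 41.0, 27.5 and 33.0 CPM of TAC 6 week SR9009. Which libraries of that vehicle group are the unusual ones was not tested. The values without these libraries are given beside the calls they change, and the reason they stand apart was not tested. TAC 1 week vehicle 2 was low in its group as well, with 235 CPM of Postn against 591, 700 and 947 CPM. It had the lowest level of its group for 7 of the 10 members, and it was kept in the fits without several libraries at once.

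Between neighbouring groups in the order of their mean levels, most ranges overlapped; those without overlap were TAC 6 week SR9009 over Control for Tgfb3 and Ltbp2, TAC 6 week vehicle over TAC 6 week SR9009 for Tgfbr2, Control over TAC 1 week vehicle for Tgfbr3 and Ltbp1, and TAC 6 week SR9009 over TAC 6 week vehicle for Ltbp1.

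Per kilobase of merged exons, the receptors were the most abundant members and the activin subunits the least. The median over 17 libraries was 14.1 CPM per kb for Tgfbr3, 11.8 for Tgfbr2 and 10.8 for Tgfbr1, then 8.97 for Tgfb3 and 8.80 for Ltbp1. Tgfb2 had 3.90 CPM per kb, Ltbp2 2.89 and Tgfb1 2.06, and Inhbb (0.845) and Inhba (0.169) were the lowest. By the FPKM that the authors deposited, Ltbp1 ranked 1 with a median of 29.3 FPKM, followed by Tgfbr2 (15.8 FPKM) and Tgfbr3 (13.1 FPKM), and Inhbb (0.983 FPKM) and Inhba (0.518 FPKM) were again last. The deposited FPKM varied widely between libraries for most members, for example from 1.57 to 45.7 FPKM for Tgfb2 and from 6.55 to 106 FPKM for Tgfbr1, and the order of the genes between these ends depends on the measure.

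Vehicle-treated TAC hearts held more Tgfb3, Tgfbr2 and Ltbp2 RNA than Control hearts and less Tgfbr3 and Ltbp1 RNA at both times, and Tgfb2 and Tgfbr1 were higher at 6 weeks as well. At 6 weeks 5 members rose and 2 fell of 10 tested (edgeR quasi-likelihood test, adjusted p under 0.05), beside 20.7% of all 15931 genes tested that passed in either direction, 10.7% higher and 9.96% lower. At 1 week 3 rose and 2 fell, beside 14.8% of all genes, 8.91% higher and 5.92% lower. The median log2 fold change over the 10 members was 0.56 at 6 weeks and 0.38 at 1 week, with -0.01 and 0.00 over all genes. The libraries of TAC and Control did not overlap for 8 members at 6 weeks, beside 39.0% of all genes, and for 6 at 1 week, beside 31.7%. Without Control 2, 5 members passed at 6 weeks and 2 at 1 week. At 1 week, 1 passed without Control 1 and 2 passed without Control 3. Both comparisons use the same Control libraries, so their calls are not independent of each other. In RNA of heart tissue, fewer cells of a type and less RNA per cell cannot be told apart.

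**Figure D1:**
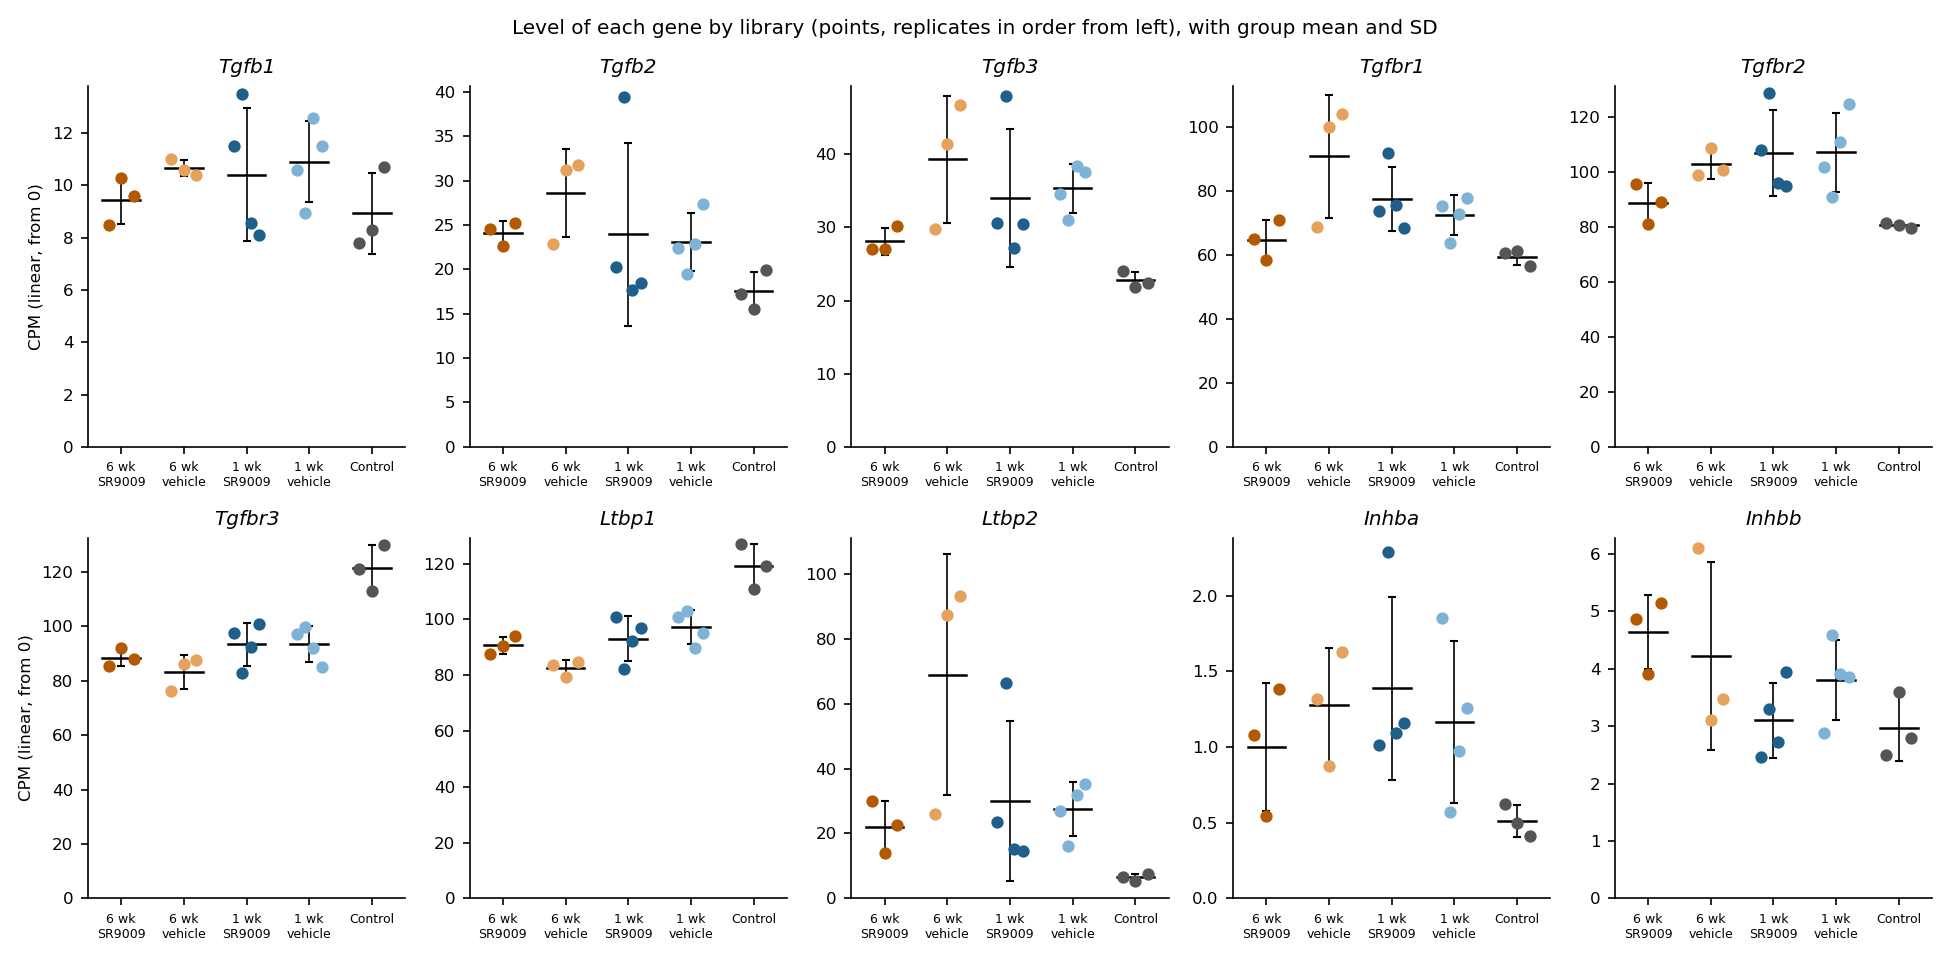
CPM of the 10 genes in each of the 17 libraries (points), with the group mean (line) and SD (bar); panels have their own linear axes from 0 and groups run from TAC 6 week SR9009 at the left to Control at the right. The 3 Control libraries lie below every TAC library for Ltbp2 (5.30 to 7.45 CPM in Control) and above every TAC library for Tgfbr3 and Ltbp1.

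Of the ligands, Tgfb3 was the most abundant per length and had the clearest difference. Tgfb3 (ENSMUSG00000021253.6, chromosome 12, 86056745 to 86079041, GRCm38, minus strand) had 29.8, 41.4 and 46.7 CPM in TAC 6 week vehicle, 34.5, 31.0, 38.4 and 37.5 CPM in TAC 1 week vehicle, and 24.1, 21.8 and 22.4 CPM in Control. All vehicle TAC libraries stood above all Control libraries. The log2 fold change against Control was 0.79 ± 0.18 (SE) at 6 weeks (edgeR adjusted p = 0.00597) and 0.64 ± 0.18 at 1 week (adjusted p = 0.0231). The 6-week call held without each library in turn, whereas the 1-week call was lost without any 1 of the 3 Control libraries or without TAC 1 week vehicle 3 or 4, with adjusted p up to 0.0792. The Tgfb3 gene model overlaps Ttll5 on the opposite strand, and since strand-aware counting is nowhere described, reads of both genes cannot be told apart where they overlap.

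Tgfb2, a ligand with a central part in heart valve development, passed the test at 6 weeks. It lies on chromosome 1 (ENSMUSG00000039239.9, 186622792 to 186705989, minus strand) and overlaps an antisense gene, with the same limit on its reads. Its level was 22.9, 31.2 and 31.8 CPM in TAC 6 week vehicle, 22.4, 19.5, 22.9 and 27.4 CPM in TAC 1 week vehicle, and 17.2, 15.5 and 19.9 CPM in Control. The 6-week libraries lay above Control, with TAC 6 week vehicle 1 the lowest of them, while TAC 1 week vehicle 2 lay within the Control range. Against Control this gave log2 0.71 ± 0.24 at 6 weeks (edgeR adjusted p = 0.0444) and 0.40 ± 0.23 at 1 week (adjusted p = 0.250). The 6-week call was kept in 1 of 6 fits with a library left out, that without TAC 6 week vehicle 1, and the adjusted p in the other fits ran up to 0.141. The 6-week minus 1-week difference of the vehicle groups was 0.30 ± 0.22 (adjusted p = 0.397).

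Tgfb1, the ligand most studied in fibrosis, did not pass the test at either time. Tgfb1 (ENSMUSG00000002603.10, chromosome 7, 25687002 to 25705077, plus strand) had 11, 10.6 and 10.4 CPM in TAC 6 week vehicle, 10.6, 8.94, 12.6 and 11.5 CPM in TAC 1 week vehicle, and 7.80, 8.29 and 10.7 CPM in Control. Control 3 lay inside the range of the TAC libraries. Against Control this gave log2 0.26 at 6 weeks, with a 95% interval from -0.12 to 0.64 (edgeR adjusted p = 0.339), and 0.29 at 1 week, with an interval from -0.07 to 0.66 (adjusted p = 0.267). A rise as large as 1.5-fold is inside both intervals.

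The make-up of the ligand pool per length differed by a few percentage points between groups. Tgfb3 made up 57.9% ± 0.866 (SD, n = 3) of the summed CPM per kb of the 3 ligands in TAC 6 week SR9009, 61.9% ± 2.80 (n = 3) in TAC 6 week vehicle, 62.2% ± 2.28 (n = 4) in TAC 1 week SR9009, 63.0% ± 1.23 (n = 4) in TAC 1 week vehicle and 58.5% ± 3.65 (n = 3) in Control. Tgfb1 made up the smallest share in each group, from a mean of 11.6% in TAC 6 week vehicle to 15.3% in Control. That place depends on the measure: by the deposited FPKM the median of Tgfb1 (5.95 FPKM) was above that of Tgfb2 (3.25 FPKM). The shares of Control overlapped those of the TAC 6 week vehicle libraries for each of the ligands.

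Among the receptors, both signalling subunits rose and the co-receptor fell under vehicle TAC at 6 weeks. Tgfbr1, the type I receptor kinase (ENSMUSG00000007613.10, chromosome 4, 47353222 to 47414931, plus strand), had 68.8, 100 and 104 CPM in TAC 6 week vehicle, 75.4, 63.7, 72.7 and 78.0 CPM in TAC 1 week vehicle, and 60.7, 61.2 and 56.5 CPM in Control. All of these TAC libraries stood above Control, and TAC 6 week vehicle 1 lay among the 1-week values. The log2 fold change against Control was 0.61 ± 0.13 at 6 weeks (edgeR adjusted p = 0.00411), called in each of 6 fits with a library left out, and 0.29 ± 0.13 at 1 week (adjusted p = 0.135). Between the vehicle groups it was 0.32 ± 0.12 at 6 weeks over 1 week (adjusted p = 0.0936), and 0.49 ± 0.10 without TAC 6 week vehicle 1 (adjusted p = 0.00356). That was the 1 of 7 fits with a library left out in which Tgfbr1 passed.

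Tgfbr2, the type II receptor that binds the ligand (ENSMUSG00000032440.7, chromosome 9, 116084293 to 116175360, minus strand), had 99.0, 109 and 101 CPM in TAC 6 week vehicle, 102, 91.0, 111 and 125 CPM in TAC 1 week vehicle, and 81.5, 80.7 and 79.8 CPM in Control. The Control libraries differed by under 2 CPM and lay below all of these TAC libraries. The rise was 1.28-fold at 6 weeks (log2 0.35 ± 0.11, edgeR adjusted p = 0.0349) and 1.33-fold at 1 week (log2 0.41 ± 0.11, adjusted p = 0.0168). These calls were kept in 1 of 6 and 3 of 7 fits with a library left out, with adjusted p up to 0.126 and 0.0683.

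Tgfbr3, the betaglycan co-receptor (ENSMUSG00000029287.9, chromosome 5, 107106570 to 107289629, minus strand), ran the other way. It had 76.2, 86.2 and 87.5 CPM in TAC 6 week vehicle, 97.2, 99.7, 92.1 and 84.9 CPM in TAC 1 week vehicle, and 121, 113 and 130 CPM in Control. No TAC library reached the lowest Control library. The Tgfbr3 gene model overlaps 4 others, with Gm42900, Gm43422 and Gm43423 on the same strand, and reads cannot be told apart where they overlap. Tgfbr3 fell to 0.688 of Control at 6 weeks (log2 -0.54 ± 0.08, edgeR adjusted p = 2.91e-04) and to 0.772 at 1 week (log2 -0.37 ± 0.08, adjusted p = 0.00451). Both calls held in every fit with a library left out. With the library total as a covariate, Ltbp1 alone of the 7 members kept its 6-week call, Tgfbr3 standing at log2 -0.39 (adjusted p = 0.102) and Ltbp2 at 2.62 (adjusted p = 0.134).

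The latency proteins gave the widest contrast of the set. Ltbp2 (ENSMUSG00000002020.10, chromosome 12, 84783212 to 84876532, minus strand, with an antisense gene, D030025P21Rik, across it whose reads cannot be told apart) had 26.1, 87.5 and 93.3 CPM in TAC 6 week vehicle, 27.0, 16, 31.8 and 35.3 CPM in TAC 1 week vehicle, and 6.66, 5.30 and 7.45 CPM in Control. Every TAC library was above Control, and TAC 6 week vehicle 1 lay among the 1-week libraries, while libraries 2 and 3 of that group lay far above them. Ltbp2 rose 10.7-fold at 6 weeks (log2 3.41 ± 0.60, edgeR adjusted p = 9.39e-04) and 4.29-fold at 1 week (log2 2.10 ± 0.60, adjusted p = 0.0268). The 6-week call held in 6 of 6 fits with a library left out, and the 1-week call in 2 of 7, being lost without any 1 Control library or without TAC 1 week vehicle 3 or 4 (adjusted p up to 0.0932). At 6 weeks over 1 week the log2 difference of the vehicle groups was 1.31 ± 0.46 (adjusted p = 0.0745), and 1.70 ± 0.43 without TAC 6 week vehicle 1 (adjusted p = 0.0117). That was the 1 of 7 fits with a library left out in which Ltbp2 passed.

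Ltbp1, which binds the latent complex through its propeptide and anchors it in the matrix (ENSMUSG00000001870.10, chromosome 17, 75005568 to 75392512, plus strand), fell. It had 83.6, 79.2 and 84.9 CPM in TAC 6 week vehicle, 101, 103, 89.6 and 95.2 CPM in TAC 1 week vehicle, and 127, 111 and 119 CPM in Control. The 3 groups did not overlap one another. The Ltbp1 gene model overlaps the processed pseudogene Gm6276 on the same strand, with the same limit on its reads. The fall against Control was 0.52 ± 0.07 on the log2 scale at 6 weeks (log2 -0.52, edgeR adjusted p = 1.96e-04) and 0.29 ± 0.07 at 1 week (log2 -0.29, adjusted p = 0.0122), and the 1-week call was lost without Control 1 (adjusted p = 0.0739). Ltbp1 was the 1 member called between the vehicle groups, at 6 weeks over 1 week, with log2 -0.23 ± 0.07 (adjusted p = 0.0378), beside 12.1% of all genes, 6.18% higher and 5.90% lower. It was also the 1 member without overlap between those groups, beside 22.0% of all genes. The call was kept in 2 of 7 fits with a library left out, with adjusted p up to 0.139.

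With Ltbp3 and Ltbp4 added, the 4 LTBP genes could be set against each other per length. Ltbp2 made up 7.29% ± 2.90 (SD, n = 3) of their summed CPM per kb in TAC 6 week SR9009, 15.2% ± 5.89 (n = 3) in TAC 6 week vehicle, 7.88% ± 5.0 (n = 4) in TAC 1 week SR9009, 7.18% ± 2.32 (n = 4) in TAC 1 week vehicle and 2.09% ± 0.219 (n = 3) in Control. Ltbp1 made up 22.7% ± 0.586, 15.5% ± 4.45, 20.8% ± 4.33, 19.3% ± 0.931 and 29.5% ± 1.95 of it in the same groups in that order. The lowest TAC share of Ltbp2, 4.13%, was above the highest Control share, 2.26%, and the highest TAC share of Ltbp1, 24.2%, was below the lowest Control share, 27.6%. Ltbp4 held the largest share in every group, with means from 62.5% in Control to 67.5% in TAC 1 week vehicle. Its level was itself higher in TAC 6 week vehicle than in Control (log2 0.52 ± 0.14, edgeR adjusted p = 0.0160), with overlapping libraries. A share of Ltbp1 thus also moves with the levels of the other LTBP genes, and its fall is not the fall of Ltbp1 RNA alone.

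**Figure D2:**
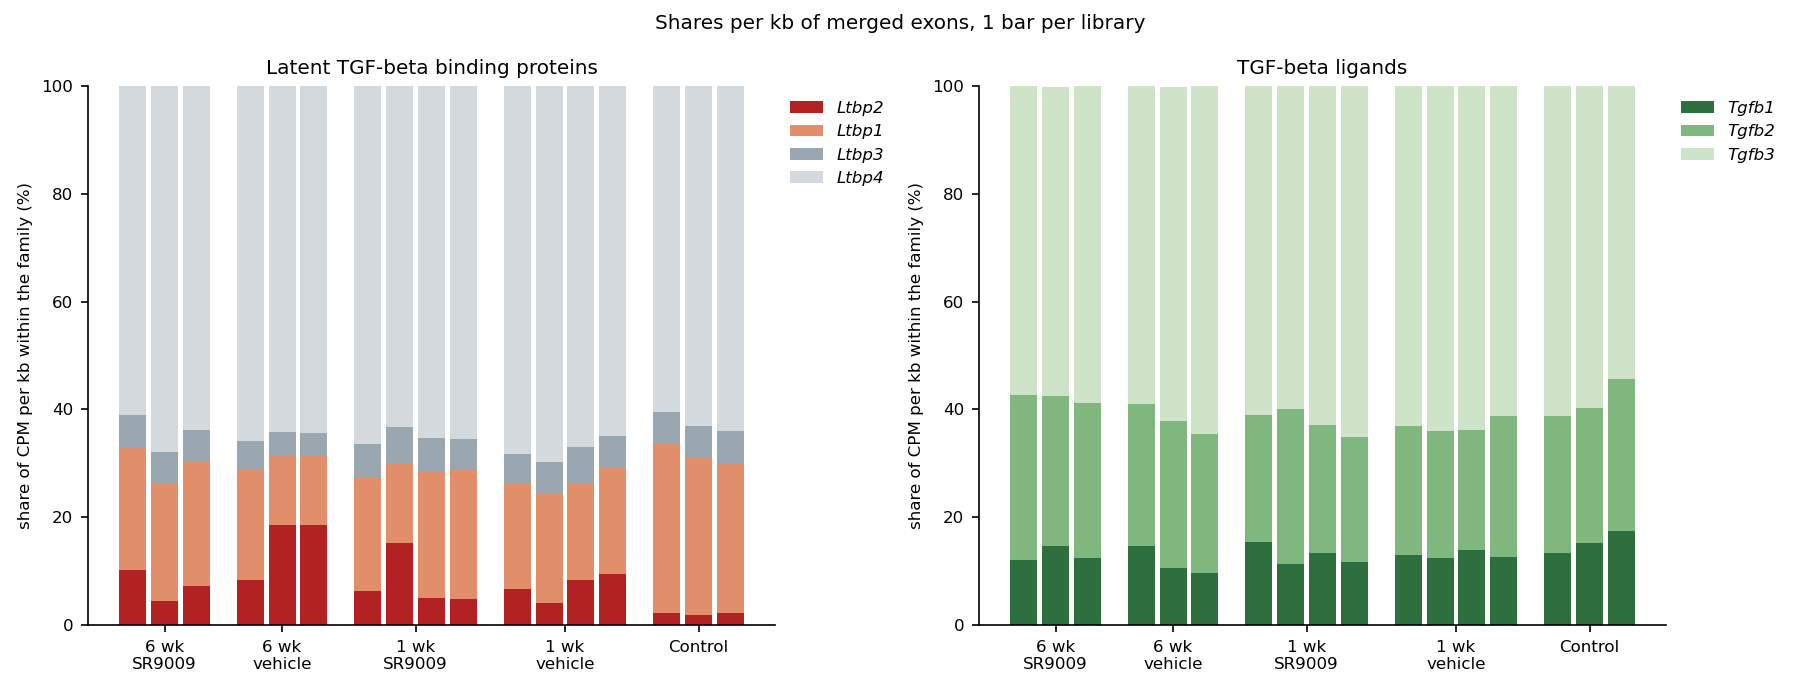
Share of the summed CPM per kb of merged exons within the LTBP genes (left) and the TGF-beta ligands (right), 1 bar per library, with groups from TAC 6 week SR9009 to Control. In the left panel Ltbp2 takes more and Ltbp1 less of the bar in each TAC library than in each Control library, with Ltbp2 at most 2.26% in Control; in the right panel Tgfb3 takes the largest share in every library.

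The activin subunits were low and their differences rest on few fragments. Inhba (ENSMUSG00000041324.8, chromosome 13, 16011851 to 16031621, plus strand, with an antisense gene across it), which gives activin A, had 1.32, 0.873 and 1.63 CPM in TAC 6 week vehicle, 1.85, 0.573, 0.974 and 1.26 CPM in TAC 1 week vehicle, and 0.624, 0.500 and 0.414 CPM in Control. Those Control values stand for 6, 5 and 4 fragments. The 6-week libraries were all above Control, TAC 1 week vehicle 2 was not, and 6 weeks gave a log2 fold change of 1.31 ± 0.48 (edgeR adjusted p = 0.0630) and 1 week 1.17 ± 0.49 (adjusted p = 0.111).

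Inhbb (ENSMUSG00000037035.5, chromosome 1, 119415465 to 119422248, minus strand), which gives activin B, had 6.10, 3.10 and 3.47 CPM in TAC 6 week vehicle, 2.88, 4.59, 3.90 and 3.85 CPM in TAC 1 week vehicle, and 2.50, 3.60 and 2.80 CPM in Control. Both vehicle groups overlapped Control. Against Control this gave log2 0.51 ± 0.26 at 6 weeks (edgeR adjusted p = 0.182) and 0.36 ± 0.26 at 1 week (adjusted p = 0.368).

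**Figure D3:**
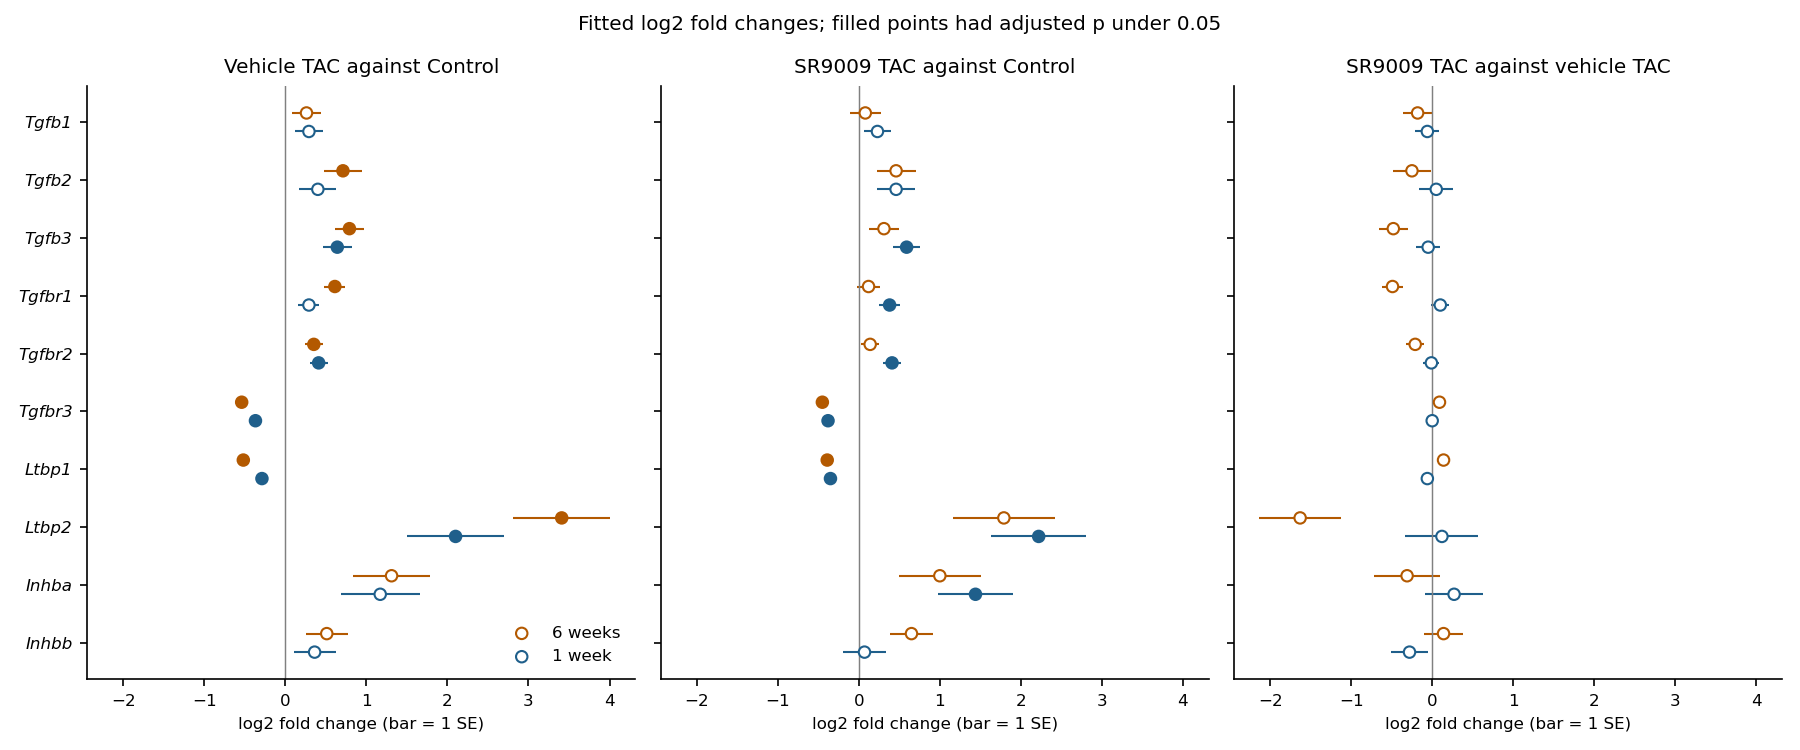
Log2 fold changes of the 10 genes with 1 SE for vehicle TAC against Control (left), SR9009 TAC against Control (middle) and SR9009 TAC against vehicle TAC (right), 6 weeks above 1 week; filled points passed adjusted p under 0.05. Ltbp2 is farthest right in the left panel (3.41 at 6 weeks), Tgfbr3 and Ltbp1 are left of 0 in the left and middle panels, and no point is filled in the right panel.

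Under SR9009 at 1 week, 5 members rose and 2 fell of 10 against Control, beside 19.9% of all genes that passed in either direction, 11.4% higher and 8.48% lower. The libraries did not overlap for 7 members, beside 32.8% of all genes. Without TAC 1 week SR9009 2, 3 members passed, and without Control 1, 2 or 3 the count was 3, 3 or 2. Ltbp2 had 23.6, 66.3, 15.3 and 14.7 CPM in TAC 1 week SR9009, against 6.66, 5.30 and 7.45 CPM in Control. Its values exceeded Control in every library, with library 2 far above the rest, at log2 2.22 ± 0.59 (edgeR adjusted p = 0.0152), and at 1.45 ± 0.48 without library 2 (adjusted p = 0.0528). The call was also lost without any 1 Control library (adjusted p from 0.0508 to 0.0607). Tgfb3 had 30.6, 48.0, 27.2 and 30.4 CPM in TAC 1 week SR9009 and rose by log2 0.59 ± 0.17 over Control (adjusted p = 0.0257), with 0.37 ± 0.13 without library 2 (adjusted p = 0.0725). Without any 1 Control library that call was lost as well (adjusted p from 0.0598 to 0.0849).

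Of the remaining calls at 1 week of SR9009, those of the genes that fell held without each library. Tgfbr3 had 97.4, 82.7, 92.3 and 101 CPM and Ltbp1 101, 82.4, 92.1 and 97.0 CPM in TAC 1 week SR9009, each below every Control library. Their log2 fold changes were -0.38 ± 0.07 (edgeR adjusted p = 0.00345) and -0.35 ± 0.07 (adjusted p = 0.00333), called in 7 of 7 fits with a library left out. Tgfbr2 rose by log2 0.41 ± 0.11 (adjusted p = 0.0133), called in 6 of 7 and lost without Control 3 (adjusted p = 0.0526), with 108, 129, 96.3 and 95.2 CPM. Tgfbr1, with 73.9, 91.9, 75.6 and 68.6 CPM, rose by log2 0.38 ± 0.13 (adjusted p = 0.0414), a call kept in 1 of 7 fits with a library left out. Without SR9009 library 2 it stood at log2 0.29 ± 0.12 (adjusted p = 0.125), and without 1 Control library the adjusted p ran from 0.0860 to 0.139. Inhba, with 1.01, 2.29, 1.09 and 1.16 CPM, rose by log2 1.44 ± 0.46 (adjusted p = 0.0358), and stood at 1.07 ± 0.44 without library 2 (adjusted p = 0.123). That call was kept in 3 of 7 fits with a library left out and lost without any 1 Control library (adjusted p from 0.0761 to 0.124). Tgfb1 (11.5, 13.5, 8.56 and 8.11 CPM), Tgfb2 (20.3, 39.4, 17.7 and 18.5 CPM) and Inhbb (2.47, 3.29, 2.72 and 3.94 CPM) overlapped Control and did not pass. None of the 7 calls was kept with the library total as a covariate.

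At 6 weeks of TAC with SR9009, 2 of 10 members differed from Control by the test, both lower, beside 4.38% of all genes in either direction, 2.60% higher and 1.78% lower. The libraries did not overlap for 6 members, beside 30.7% of all genes. Tgfbr3 had 85.6, 91.9 and 88.1 CPM in TAC 6 week SR9009, against 121, 113 and 130 CPM in Control, which gave log2 -0.45 ± 0.08 (edgeR adjusted p = 0.00356). Ltbp1 had 87.7, 90.4 and 94.0 CPM in TAC 6 week SR9009, against 127, 111 and 119 CPM in Control, which gave log2 -0.39 ± 0.07 (adjusted p = 0.00601). Both calls held in 6 of 6 fits with a library left out. Ltbp2 had 29.9, 13.9 and 22.6 CPM in TAC 6 week SR9009, above every Control library, with log2 1.79 ± 0.63 that did not pass (adjusted p = 0.119). That gene passed in a fit of these 2 groups alone (adjusted p = 2.28e-04), and so did Tgfb2, Tgfb3 and Inhbb, which took the count to 6.

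SR9009 was then set against vehicle at the same time after TAC. At 1 week none of the 10 members passed (edgeR, 0 of 15931 genes, 0%; 1019 genes at an unadjusted p under 0.05, 13 by DESeq2), and no member had an unadjusted p under 0.05 or passed by DESeq2. The libraries overlapped for every member, beside 4.35% of all genes without overlap. Log2 fold changes lay between -0.28 (Inhbb) and 0.27 (Inhba). The 95% interval for Tgfbr3 ran from -0.15 to 0.15 and that for Ltbp1 from -0.20 to 0.07, while that for Ltbp2 ran from -0.83 to 1.07. Ltbp2 had 23.6, 66.3, 15.3 and 14.7 CPM in TAC 1 week SR9009 and 27.0, 16, 31.8 and 35.3 CPM in TAC 1 week vehicle, so 3 of the 4 SR9009 libraries lay below the mean of the vehicle libraries, 27.5 CPM, and library 2 above all of them. The log2 fold change of 0.12 turned to -0.64 ± 0.37 without that library (adjusted p = 0.533), and that of Tgfb2 turned to -0.30 ± 0.13 (adjusted p = 0.397) where it had been 0.05 ± 0.21.

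At 6 weeks no member passed either, beside 0.169% of all genes (27 genes by edgeR, 0.119% higher and 0.0502% lower, and 259 by DESeq2), with 3 members and 2498 genes at an unadjusted p under 0.05. By DESeq2, 1 member passed, Tgfbr1 (log2 -0.50, adjusted p = 0.0330). Ltbp2 had 29.9, 13.9 and 22.6 CPM in TAC 6 week SR9009 and 26.1, 87.5 and 93.3 CPM in TAC 6 week vehicle. The SR9009 libraries lay beside vehicle library 1 and far below vehicle libraries 2 and 3. The log2 fold change was -1.63 ± 0.51, with a 95% interval from -2.71 to -0.55 (edgeR adjusted p = 0.148).

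Tgfbr1 and Tgfb3 had the same arrangement of libraries. Tgfbr1 had 64.9, 58.3 and 70.9 CPM in TAC 6 week SR9009 and 68.8, 100 and 104 CPM in TAC 6 week vehicle, a log2 fold change of -0.49 ± 0.13 (edgeR adjusted p = 0.115). Tgfb3 had 27.0, 27.1 and 30.2 CPM in TAC 6 week SR9009 and 29.8, 41.4 and 46.7 CPM in TAC 6 week vehicle, a log2 fold change of -0.48 ± 0.18 (adjusted p = 0.204). Without TAC 6 week vehicle 1, these 3 genes passed, at log2 -2.02 ± 0.46 for Ltbp2 (adjusted p = 0.0114), -0.65 ± 0.11 for Tgfbr1 (adjusted p = 9.66e-04) and -0.64 ± 0.17 for Tgfb3 (adjusted p = 0.0254), and 1482 genes in all passed. That fit, picked out after the data had been seen, keeps vehicle libraries 2 and 3 only. The library left out was the vehicle one nearest to SR9009 in all 3 genes, so their difference widens by construction. Each of the 3 genes passed in 1 of 6 fits with a library left out. TAC 6 week vehicle 1 is also the library with Arntl at 42.8 CPM, beside 41.0, 27.5 and 33.0 CPM in TAC 6 week SR9009. The part of the clock difference in these results was not tested.

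The other members had smaller differences between SR9009 and vehicle at 6 weeks. Tgfb1 (8.48, 10.3 and 9.59 CPM) and Tgfbr2 (95.8, 81.2 and 89.1 CPM) lay below every vehicle library and Ltbp1 above every one, which made 3 members without overlap, beside 19.8% of all genes. Their log2 fold changes were -0.18 (95% interval from -0.55 to 0.20), -0.21 (from -0.45 to 0.02) and 0.14 (from -0.02 to 0.29). Tgfb2, with 24.6, 22.6 and 25.2 CPM in TAC 6 week SR9009, stood at log2 -0.25 (from -0.73 to 0.24) and Tgfbr3 at 0.09 (from -0.08 to 0.26). Inhba had 1.08, 0.543 and 1.38 CPM in TAC 6 week SR9009 (log2 -0.31, from -1.18 to 0.55) and Inhbb 4.87, 3.91 and 5.14 CPM (log2 0.14, from -0.37 to 0.66), both within or across the vehicle range.

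The difference between the SR9009 effects of both times was itself tested. No member passed, beside 0.119% of all genes (0.0942% higher and 0.0251% lower by edgeR; 2 members at an unadjusted p under 0.05 and 0 members by DESeq2). For Ltbp2 the 6-week effect minus the 1-week effect was -1.75 ± 0.68 on the log2 scale (adjusted p = 0.266) and for Tgfbr1 -0.58 ± 0.17 (adjusted p = 0.159). Without TAC 6 week vehicle 1 they were -2.14 ± 0.60 (adjusted p = 0.0449) and -0.75 ± 0.14 (adjusted p = 0.00302). For both genes that was the 1 of 14 fits with a library left out in which they passed. Between the SR9009 groups, at 6 weeks over 1 week, no member passed by edgeR, beside 8.95% of all genes (3.29% higher and 5.66% lower), and no member was without overlap, beside 22.8% of all genes, with 2 members at an unadjusted p under 0.05 (Tgfbr2 at log2 -0.27 and Inhbb at 0.58) and 0 by DESeq2.

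The rest of the pathway was read from 7 lists of 77 genes, of which 68 were tested. Against Control, 18 rose (26.5%, beside 10.7% of all genes tested) and 3 fell in TAC 6 week vehicle, and 19 rose (27.9%, beside 8.91%) and 0 fell in TAC 1 week vehicle. In TAC 6 week SR9009, 3 rose (4.41%, beside 2.60%) and 1 fell, and in TAC 1 week SR9009 23 rose (33.8%, beside 11.4%) and 3 fell. None passed for SR9009 against vehicle at either time by the edgeR test.

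These counts moved with the libraries that stand apart, in fits chosen after the data had been seen. For TAC 6 week vehicle, 22 rose and 5 fell without TAC 6 week vehicle 1, and 13 and 2 without Control 2. Without both of these and TAC 1 week SR9009 2, below called the 3 libraries, 32 rose and 4 fell. Over all genes, 4062 passed in either direction without TAC 6 week vehicle 1, beside 3292 in the full fit. For TAC 1 week vehicle, 12 rose and 0 fell without Control 2, where 1291 of all genes passed, beside 2362 in the full fit. The loss was not particular to Control 2: 1026 of all genes passed without Control 1 and 1074 without Control 3. For TAC 6 week vehicle 1981 passed without Control 1 and 2099 without Control 3. The lists were not counted without Control 1 or 3. Counts of a list in a fit with libraries left out, here and below, thus move along with those of all genes. For TAC 1 week SR9009, 16 rose and 1 fell without TAC 1 week SR9009 2. For TAC 6 week SR9009, 1 rose and 0 fell without Control 2, and 9 and 2 without the 3 libraries. For SR9009 against vehicle at 6 weeks, 4 genes were higher and 12 lower of 69 tested without TAC 6 week vehicle 1, which is 5.80% and 17.4%, beside 4.17% and 5.03% of all genes in that fit.

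Of 15 other latency and activation genes, 3 rose (20%, beside 10.7% of all genes) and 0 fell in TAC 6 week vehicle against Control. In either direction 20.7% of all genes were called there. In TAC 1 week vehicle 6 rose (40%, beside 8.91% of all genes) and 0 fell. At 6 weeks 4 rose and 2 fell without TAC 6 week vehicle 1, 1 rose without Control 2, and 8 rose and 2 fell without the 3 libraries. Thbs1, thrombospondin 1, which can activate latent TGF-beta, stood at log2 2.73 ± 0.45 at 6 weeks (edgeR adjusted p = 6.12e-04) and 2.10 ± 0.43 at 1 week (adjusted p = 0.00527). Fbn1, the fibrillin to which LTBPs attach, rose at 1 week by 1.40 ± 0.29 (adjusted p = 0.00479), and Emilin1, a microfibril-associated protein that can restrain processing of the TGF-beta precursor, by 1.01 ± 0.21 (adjusted p = 0.00557). In TAC 6 week vehicle relative to TAC 1 week vehicle, Fbn2 (log2 -1.96 ± 0.44, adjusted p = 0.00830) and Nrros (log2 -0.44 ± 0.11, adjusted p = 0.0119), which holds latent TGF-beta on macrophages and microglia, fell.

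Of 6 extracellular and membrane inhibitors tested, 4 rose (66.7%, beside 10.7% of all genes) and 1 fell in TAC 6 week vehicle, and 3 rose (50%, beside 8.91%) and 0 fell in TAC 1 week vehicle, or 2 without Control 2. Fstl3, a secreted binder of activins, stood at log2 2.52 ± 0.47 at 6 weeks (edgeR adjusted p = 0.00143) and 2.0 ± 0.49 at 1 week (adjusted p = 0.0123). Bgn, the proteoglycan biglycan, stood at 1.49 ± 0.24 (adjusted p = 6.12e-04) and 1.28 ± 0.23 (adjusted p = 0.00249). Of 7 intracellular negative regulators, 4 rose at 6 weeks (beside 10.7% of all genes) and 2 at 1 week (beside 8.91%), or 0 at 1 week without Control 2. Among them Pmepa1, a SMAD-binding membrane protein induced by TGF-beta, stood at 0.74 ± 0.15 (adjusted p = 0.00263) and 0.57 ± 0.14 (adjusted p = 0.0157).

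Of 8 SMAD genes, which carry the signal to the nucleus, 1 fell and 0 rose at 6 weeks, beside 9.96% of all genes lower and 10.7% higher. The gene was Smad3 (log2 -0.50 ± 0.11, edgeR adjusted p = 0.00557). At 1 week 0 of 8 passed, beside 14.8% of all genes in either direction, and 3 had an unadjusted p under 0.05. In TAC 6 week vehicle relative to TAC 1 week vehicle, Smad4 was higher by log2 0.15 ± 0.05 (adjusted p = 0.0459) and Smad5 (-0.17 ± 0.05, adjusted p = 0.0258) and Smad1 (-0.36 ± 0.10, adjusted p = 0.0273) fell, 3 of 8 beside 12.1% of all genes. Of 8 other receptors, 1 fell and 0 rose at 6 weeks, namely Acvr2b, an activin type II receptor (log2 -0.88 ± 0.22, edgeR adjusted p = 0.00878). Of 10 other ligands, 1 rose and 0 fell at 6 weeks, namely Gdf15, a stress-induced ligand (2.64 ± 0.53, adjusted p = 0.00252). Single calls in lists of this size are near the 9.96% of all genes lower and 10.7% higher.

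Known target genes had the highest median of the 7 lists at both times of vehicle TAC. Of 14 target genes, 6 rose (42.9%, beside 10.7% of all genes) and 0 fell in TAC 6 week vehicle, with a list median of log2 0.70, and 8 rose (57.1%, beside 8.91%) and 0 fell in TAC 1 week vehicle, with a median of 1.36. In TAC 6 week SR9009 0 of 14 passed against Control (edgeR), beside 2.60% of all genes higher and 1.78% lower, with a median of 0.12. A count of 0 of 14 is near those small shares. In TAC 1 week SR9009 10 rose, beside 11.4% of all genes, with a median of 1.49. Left-out libraries moved these counts: at 6 weeks of vehicle 6 rose without TAC 6 week vehicle 1, 3 without Control 2 and 11 without the 3 libraries (medians 0.85, 0.73 and 0.83). At 1 week of vehicle 5 rose without Control 2 (median 1.29), and at 1 week of SR9009 8 rose without TAC 1 week SR9009 2 (median 0.97). At 6 weeks of SR9009 3 rose without the 3 libraries (median 0.11). Postn, the matricellular protein periostin, stood at log2 3.43 ± 0.63 in TAC 6 week vehicle (adjusted p = 0.00127) and 3.13 ± 0.60 in TAC 1 week vehicle (adjusted p = 0.00368) over Control. Ccn2, connective tissue growth factor, stood at 2.22 ± 0.44 at 6 weeks (adjusted p = 0.00237), and the collagen genes Col3a1 (1.69 ± 0.30, adjusted p = 0.00242) and Col1a1 (1.61 ± 0.34, adjusted p = 0.00604) at 1 week. Col3a1 was lower at 6 weeks than at 1 week of vehicle TAC (log2 -1.01 ± 0.29, adjusted p = 0.0329).

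For SR9009 against vehicle at 6 weeks, the nearest of these 68 genes to the threshold were Pmepa1 (log2 -0.69 ± 0.15, edgeR adjusted p = 0.0734), Gdf15 (log2 -2.29 ± 0.49, adjusted p = 0.0781) and Tgfbi, a secreted matrix protein induced by TGF-beta (log2 -0.52 ± 0.13, adjusted p = 0.105). The target list had a median of log2 -0.62 there, with 0.00 over all genes. Without TAC 6 week vehicle 1, 4 of 14 targets fell, with a median of -0.78, in a fit where 1482 of all genes passed.

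**Figure D4:**
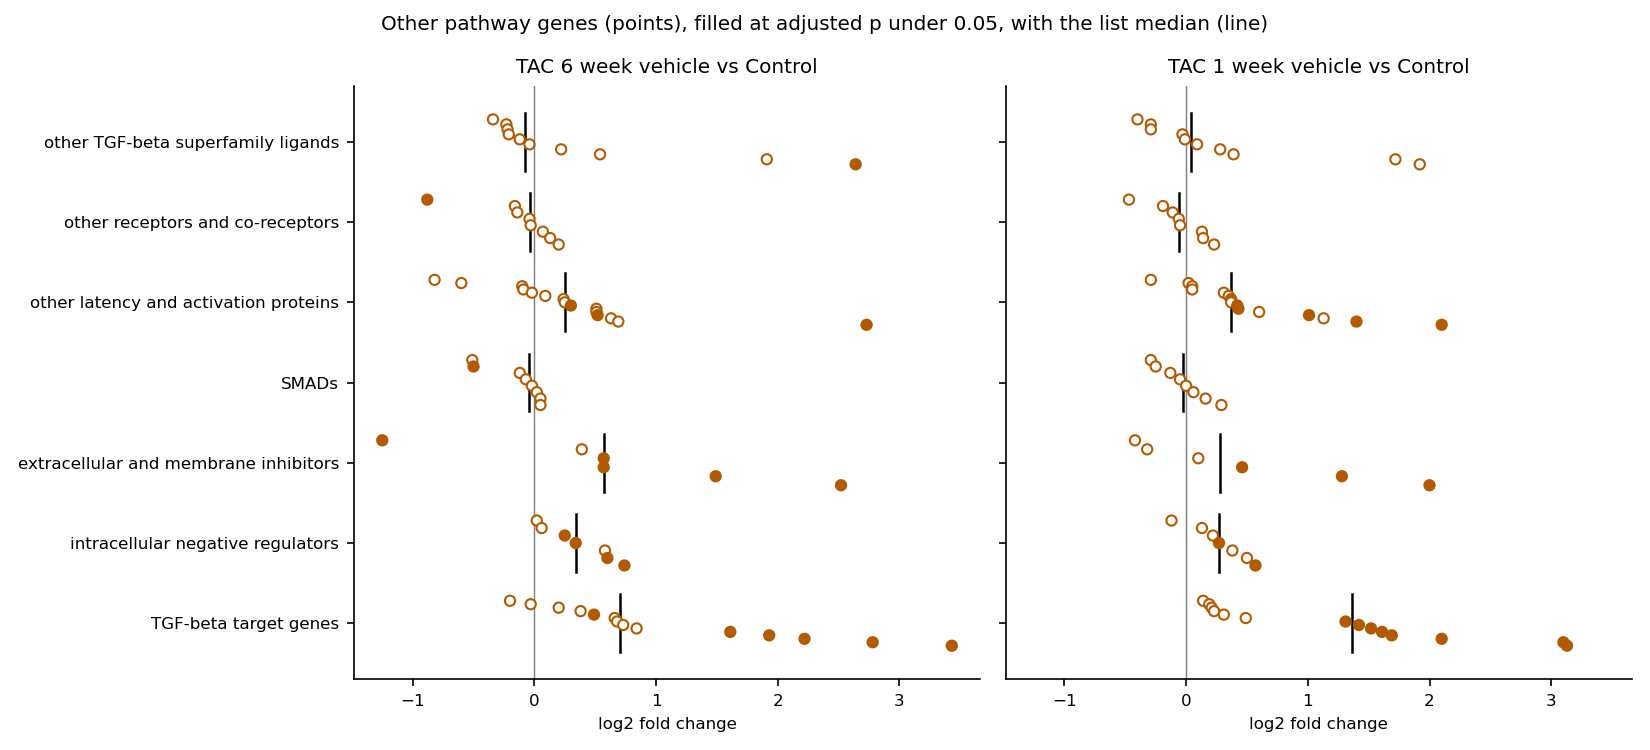
Log2 fold changes of the 68 tested pathway genes outside the 10 members, by list, for TAC 6 week vehicle (left) and TAC 1 week vehicle (right) against Control; filled points passed adjusted p under 0.05 and the line is the list median. The target genes reach farthest right (Postn, 3.43 and 3.13).

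As for how the members vary, by the range of group means of log2 CPM, Ltbp2 (3.19) and Inhba (1.13) varied most among the members and Tgfb1 (0.29) least. The genes whose levels followed Ltbp2 most closely over the 17 libraries, by the mean absolute difference of centred log2 CPM, were Dio2 (0.26), Thbs1 (0.27), Cilp (0.28), Nppa (0.30) and Dkk3 (0.31). Dio2 encodes the deiodinase that activates thyroid hormone, Cilp a matrix protein first described in cartilage, Nppa the natriuretic peptide ANP and Dkk3 a secreted protein of the Dickkopf family. Cilp had a mean of 93.1 ± 14.9 CPM (SD, n = 3) in TAC 6 week SR9009, 287 ± 128 (n = 3) in TAC 6 week vehicle, 142 ± 80.0 (n = 4) in TAC 1 week SR9009, 145 ± 45.4 (n = 4) in TAC 1 week vehicle and 21.7 ± 3.70 (n = 3) in Control. For Ltbp2 and each of these 5 genes, the highest 3 of the 17 libraries were TAC 6 week vehicle 2 and 3 and TAC 1 week SR9009 2, and the lowest 3 were those of Control. The genes nearest to Inhba were Gcnt1 (0.23), Slc1a3 and Ccdc68 (0.25 each), and Ece2 and Pla2g4a (0.26 each). The measure compares libraries only, all these genes share the same libraries, and the order is a description without a test.

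**Figure D5:**
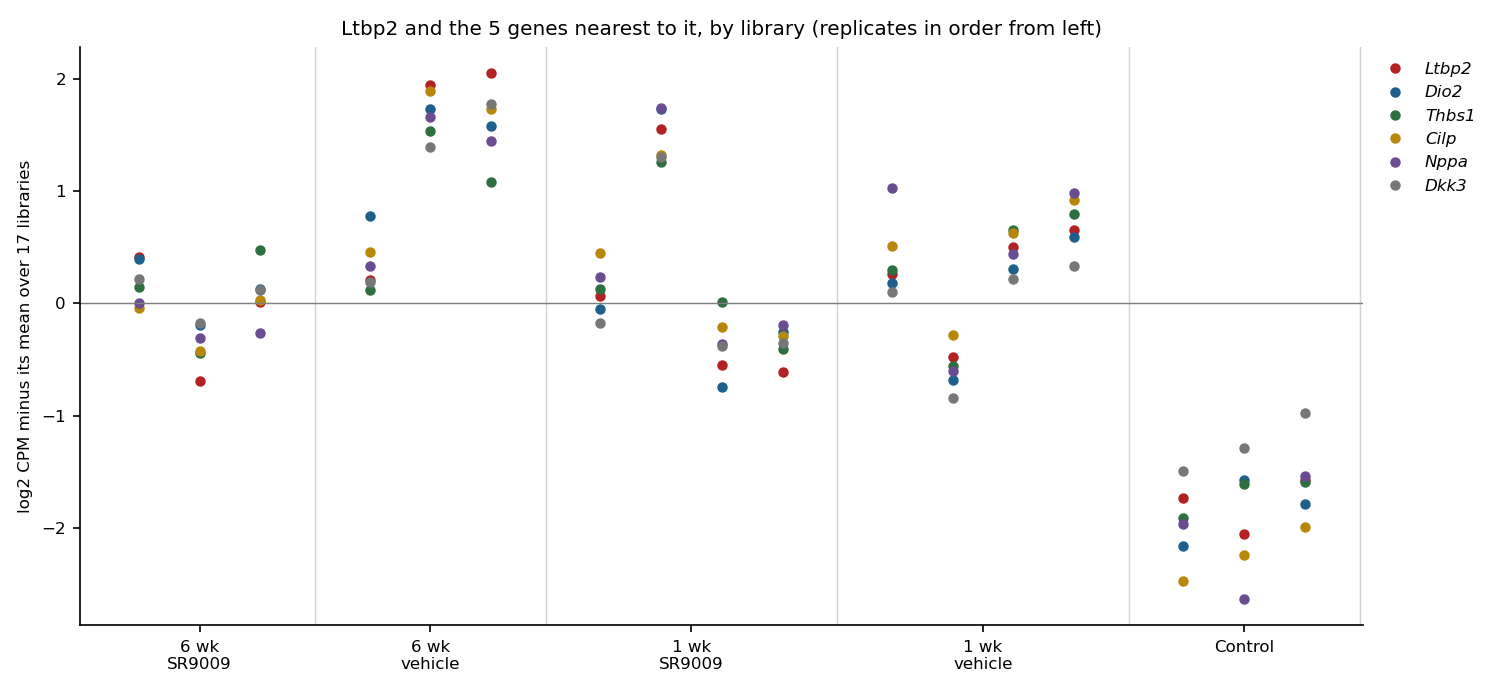
Log2 CPM of Ltbp2 and its 5 nearest genes, each minus its own mean over the 17 libraries, by library and group. The points of all 6 genes lie together in most libraries: above 1 in TAC 6 week vehicle 2 and 3 and in TAC 1 week SR9009 2, and below 0 in the Control libraries.

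Markers of cell types were read in the same libraries. The summed CPM of 6 fibroblast markers, 2 of which (Col1a1 and Dcn) are also in the pathway lists, was 1005 to 1190 in TAC 6 week SR9009, 1159 to 1523 in TAC 6 week vehicle, 1052 to 1549 in TAC 1 week SR9009, 1016 to 1255 in TAC 1 week vehicle and 902 to 945 in Control. Of these 6 markers, 2 rose at each time of vehicle TAC against Control, beside 10.7% of all genes at 6 weeks and 8.91% at 1 week. The summed CPM of 7 macrophage markers was 434 to 500, 558 to 609, 568 to 886, 547 to 648 and 374 to 405 in these groups in that order. Of these 7, 5 rose at 6 weeks and 6 at 1 week of vehicle TAC, beside the same shares of all genes. No fibroblast or macrophage marker was at 0 in a group, and none of either list passed for SR9009 against vehicle at 6 weeks. Without TAC 6 week vehicle 1, where 1482 of all genes passed, 1 fibroblast and 1 macrophage marker did, both lower.

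Of the marker lists, the mesothelial one had the median farthest from 0 at 6 weeks of vehicle TAC, log2 -3.22 over 5 markers. Of these 5, 4 fell, beside 9.96% of all genes. The medians were 0.41 for the fibroblast and 0.59 for the macrophage list. Its markers summed to 10.1 to 25.2 CPM in TAC 6 week SR9009, 12.4 to 19.3 CPM in TAC 6 week vehicle, 30.3 to 52.4 CPM in TAC 1 week SR9009, 46.7 to 58.3 CPM in TAC 1 week vehicle and 60.1 to 73.4 CPM in Control. These markers were low at 6 weeks in both treatments, with 4 of 5 lower than Control in TAC 6 week SR9009 as well (median -2.65), beside 1.78% of all genes. Endothelial markers summed to 916 to 1357 CPM in TAC 6 week vehicle and 1089 to 1177 CPM in Control, smooth muscle and pericyte markers to 2147 to 2360 and 2148 to 2389 CPM, and erythroid markers to 298 to 475 and 291 to 532 CPM. Erythroid markers reached 1343 CPM in 1 TAC 1 week SR9009 library. The labelled tissue was checked by cardiomyocyte markers, which summed to 33892 to 48382 CPM over all libraries. Atrial markers stayed under 5 CPM in sum, with Bmp10 at 0 in all TAC groups, and T cell and adipocyte markers were as low, while platelet markers summed to 14.9 to 21.5 CPM. With atrial markers this low, the samples cannot be taken as whole hearts with atria, and which part was sampled was not tested. The part of these cell types in the results for the 10 genes was not tested.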

How the data were processed

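RNA-seq of total RNA was measured in 17 mouse heart libraries, made from 1 ug of RNA with a TruSeq kit, per the labels' protocols. The authors deposited 1 table per library of 41126 genes with raw fragments per gene, which are estimated counts (between 2289 and 2678 of them in a library held fractions). The scaled fragment signal that the authors deposited beside them was not used, and the deposited FPKM served only to order genes by level. Per the submitters' processing notes, reads were placed on mm10. No aligner or counting tool is named there. Symbols and coordinates came from GENCODE vM21 for 40252 IDs, and 874 did not match. The 78 genes marked HIDATA, Myh6 among them, were left out.

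Estimated counts were rounded and fitted with edgeR 4.0.16 (R 4.3.3): TMM scaling, filterByExpr (15931 genes kept, 25117 removed), 1 quasi-likelihood model with a mean per group over 17 libraries (dispersion 0.0106, 12 residual degrees of freedom), two-sided, Benjamini-Hochberg adjusted over all genes within a comparison, threshold 0.05, with no minimum fold. The code of the fit was checked on simulated data with the same dispersion for every gene and no library standing apart. That check does not cover the wider spread of members such as Ltbp2. Alternatives were DESeq2 1.42.0, its size factors, no filter, only the groups compared, a replicate block, library total as a covariate and libraries left out. The 10 members, the lists and the 3 libraries left out together were chosen with earlier results of these data known. All members are named, and from each list, per comparison, at most the 3 genes with the smallest p; the genes nearest a member are the 5 with the smallest mean absolute difference, for the 2 members that varied most. Values near 1 CPM rest on few fragments and carry a large counting error.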

Additional observations from a re-analysis of the deposited data

Results flagged for a closer look

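In TAC 1 week SR9009, library 2 stood apart from the other 3 of its group in 3 members by Dixon's ratio of gap to range, with a 95% critical value of 0.829 for 4 libraries. Tgfb2 was at 39.4 CPM there (ratio 0.884), Tgfb3 at 48.0 CPM (ratio 0.838) and Inhba at 2.29 CPM (ratio 0.883). Of 20 groups of 4 values tested, chance flags about 1 in 20, and the 3 flags come from 1 library, and are thus not independent. The same library was the highest of its group for 7 members and the lowest for Tgfbr3 and Ltbp1, and it had the most Postn of any library, 2016 CPM. Groups of 3 libraries were not tested in this way.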

How the results depend on the processing

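Of 1307 alternative values of the members' fold changes, 74 lost a call, 31 gained one and 10 turned direction. A turn was counted only where the reported or the alternative value exceeded its SE, and no called value turned. The other 1192 kept their side of the threshold, though some changed sign within the SE. Inhba for SR9009 against vehicle at 1 week, for example, went from log2 0.27 to -0.09 without TAC 1 week SR9009 2. Where a cause is not named, it was not tested.

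In fits of only the groups compared, 3623 genes passed for TAC 1 week vehicle against Control (2362 as reported), 2119 for TAC 6 week SR9009 against Control (698), 451 for TAC 6 week SR9009 against TAC 1 week SR9009 (1426), 0 for TAC 6 week SR9009 against TAC 6 week vehicle (27) and 7 for the difference of SR9009 effects (19); 6 members passed for TAC 6 week SR9009 against Control and 0 for TAC 6 week vehicle against TAC 1 week vehicle. With DESeq2, 13 genes passed for SR9009 against vehicle at 1 week, 259 genes and 1 member at 6 weeks, and 198 for the difference of effects. Without the filter these were 4, 242 (with 2 members) and 102.

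Replicate numbers did not pair the samples (correlations of deviations from -0.445 to 0.0727). With the replicate block, 12 genes passed for SR9009 against vehicle at 6 weeks, 6 for the difference of effects and 782 for TAC 6 week SR9009 against TAC 1 week SR9009, and 0 members for TAC 6 week vehicle against TAC 1 week vehicle. With the library total as a covariate, which differs between groups, 235 genes and 1 member passed for TAC 6 week vehicle against Control, 85 and 0 for TAC 6 week vehicle against TAC 1 week vehicle, 233 and 0 for TAC 1 week SR9009 against Control, 347 genes for TAC 6 week SR9009 against Control, 880 for the SR9009 groups, and 0 for SR9009 against vehicle at 6 weeks and for the difference of effects. There Tgfb2 turned to log2 -0.10 and Inhba to -0.63 between the vehicle groups, Tgfbr3 to 0.10 for SR9009 against vehicle at 1 week, and Tgfbr2 to 0.05 and Inhba to 0.34 in the difference of effects.

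With TAC 6 week vehicle 1, TAC 1 week SR9009 2 and Control 2 left out together, a choice made from these data, 3343 genes and 5 members passed for TAC 6 week vehicle against TAC 1 week vehicle, 2160 and 4 for SR9009 against vehicle at 6 weeks, 7 genes at 1 week, 1058 genes and 2 members for the difference of effects, 1967 genes for TAC 1 week SR9009 against Control, 1238 for TAC 6 week SR9009 against Control, and 1 member for the SR9009 groups. Tgfb2 (log2 -0.30) and Ltbp2 (-0.65) turned for SR9009 against vehicle at 1 week, and Ltbp2 (0.34) between the SR9009 groups.

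Leaving out each library in turn, the genes called ranged from 993 to 3117 for TAC 1 week vehicle against Control, 1878 to 4062 for TAC 6 week vehicle against Control, 751 to 2628 between the vehicle groups, 0 to 3 and 2 to 1482 for SR9009 against vehicle at 1 and 6 weeks, 1589 to 3578 and 232 to 613 for SR9009 against Control at 1 and 6 weeks, 447 to 2025 between the SR9009 groups and 1 to 957 for the difference of effects. Members called ranged from 1 to 5 (TAC 1 week vehicle against Control), 0 to 3 (between the vehicle groups), 0 to 3 (SR9009 against vehicle at 6 weeks), 2 to 7 (TAC 1 week SR9009 against Control) and 0 to 2 (the difference). For SR9009 against vehicle at 1 week, Tgfb2 ranged from -0.30 to 0.17 and Ltbp2 from -0.64 to 0.35. Depth limits Inhba most, with 4 to 32 fragments a library.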
